A study of Mus musculus with 4 samples.

Results

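Cholesterol and fatty acid synthesis draw on one pool of cytosolic acetyl-CoA and share a family of transcription factors, the SREBPs. In the sterol branch, acetyl units are built into mevalonate, isoprenoids, squalene and lanosterol, which is trimmed to cholesterol. In the fatty acid branch they are carboxylated to malonyl-CoA, assembled into palmitate, and then elongated or desaturated. SREBP precursors sit in the endoplasmic reticulum with their escort SCAP, and INSIG proteins hold the complex there while sterols are plentiful. Transcripts of both branches can thus rise and fall together. Dividing embryonic stem cells make lipid for new membranes.

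The genes described here are 32 members of these pathways out of 23366 gene symbols in the count files: 17 sterol enzymes, 5 regulators and carriers of the sterol branch, and 10 fatty acid enzymes. They were chosen by name, and the methyl sterol oxidase gene Msmo1 was found under its older symbol Sc4mol. The libraries came from R1 mouse embryonic stem cells (strain 129X1 x 129S1), 1 line, kept on gelatin in serum, serum replacement and the cytokine LIF. In the knockdown group (n = 2 libraries) the cells received by lipofection a pSicoR-Ef1a-mCh-Puro vector with a short hairpin RNA against Cyrano, a long noncoding RNA with a site for the microRNA miR-7. The control group (n = 2 libraries) received the same vector with a non-targeting hairpin. Puromycin or cell sorting then enriched transfected cells in both groups, but the labels do not say which of these served which library, or how many hairpin sequences were used. The comparison addresses which transcripts differ once Cyrano is lowered.

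The counts over genes summed to between 16854403 and 22321102 a library, and 13199 genes passed the filter on low counts. Levels are given as CPM, a gene's counts relative to the library's total, with totals scaled by TMM factors. Cyrano (1700020I14Rik) had 24.8 and 15.1 CPM in control libraries 1 and 2, and 3.99 and 3.16 CPM in knockdown libraries 1 and 2, so the groups lay apart as labelled. The difference came to -2.48 ± 0.30 on the log2 scale (log2 fold change ± SE; edgeR adjusted p = 0.0070). Without control library 1 it was -2.08 with an adjusted p of 0.12, and without control library 2 it was -2.79 with 0.057. The pluripotency markers Pou5f1, Sox2 and Nanog were abundant in every library, and all 18 markers of that list passed the filter. In bulk RNA, fewer cells of a type and less RNA per cell cannot be told apart.

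Of the 32 members, 31 passed the filter and were tested. No member was called at an adjusted p under 0.05 over all genes by edgeR's quasi-likelihood test, where 0.0833% of all tested genes were called. At an unadjusted p under 0.05 there were 3 members, Mvk, Acss2 and Scd1, all lower after knockdown, beside 11.6% of all tested genes in either direction, 5.43% lower and 6.18% higher. Among the 31 members 25 fold changes were negative and 6 positive, and their median was -0.13 on the log2 scale. Over all tested genes, 50.2% were below 0 and the median was -0.002. Both knockdown libraries lay below both controls in 8 members, beside 21.3% of all genes, and above both in 3, beside 22.3%. The other 20 members overlapped between the groups, while 43.5% of all genes did not overlap in one direction or the other.

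**Figure D1:**
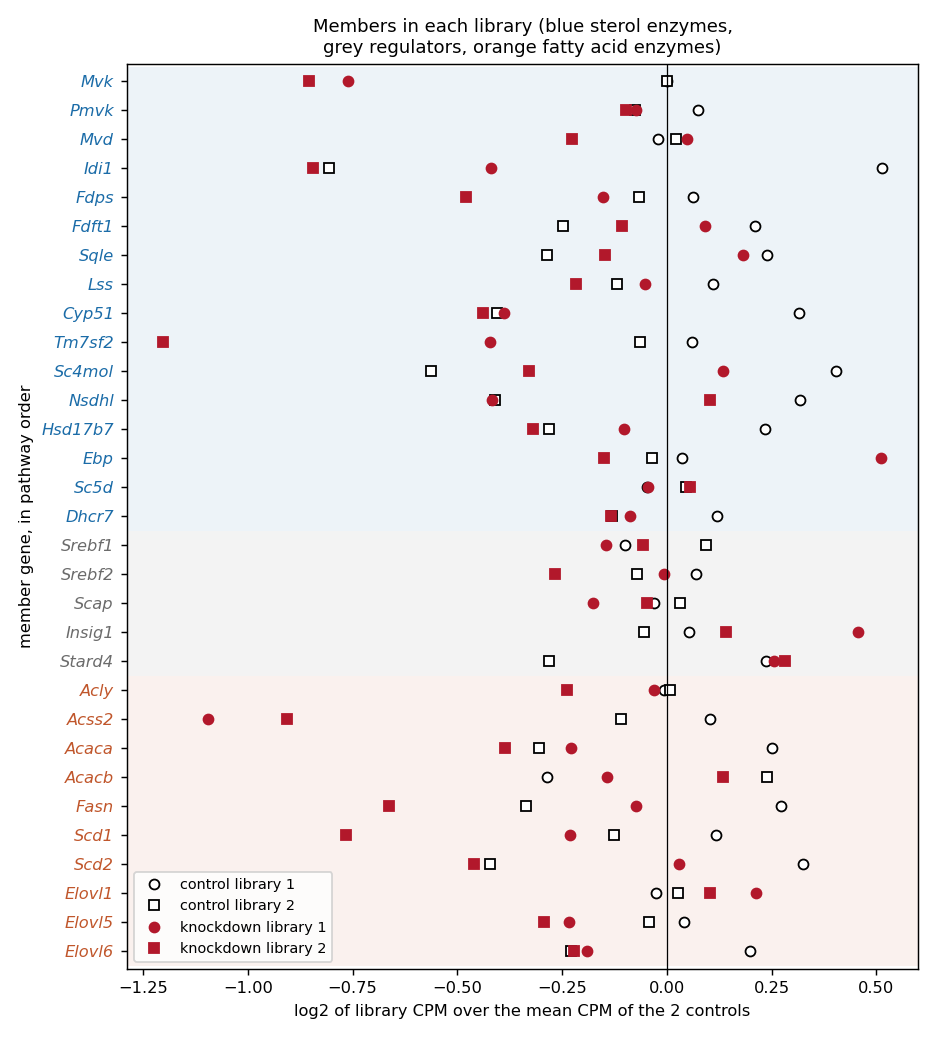
Level of each of the 31 tested members in each library, as the log2 of its CPM over the mean of the 2 controls (horizontal axis), with genes in pathway order (vertical axis); open symbols are controls and filled symbols knockdown, circles library 1 and squares library 2. Mvk and Acss2 have both filled symbols far left of both open ones, whereas in Idi1, Sc4mol, Sqle and Scd2 the open symbols span the filled ones or nearly so.

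The first committed steps of the sterol branch make and phosphorylate mevalonate. Hmgcs1, which encodes the cytosolic HMG-CoA synthase, is listed at 0 in each library, as are 27.2% of all symbols, and no level can be given for it. Whether the cells lack the transcript or the counting lost its reads was not tested. Mvk, which encodes mevalonate kinase, had 29.4 CPM in both control libraries, and 17.3 and 16.3 CPM in knockdown libraries 1 and 2. The groups lay apart, and the spread within each was small. The log2 fold change of Mvk was -0.81 ± 0.19 (SE), with an unadjusted p of 0.0012 and an edgeR adjusted p of 0.15. DESeq2 called it, with an adjusted p of 0.031, where 1.38% of genes were called. So did edgeR with no filter on low counts (0.021), where 1.95% were. That fit leaned less on each gene's own spread. The SE of Idi1, whose controls lay 1.31 apart on the log2 scale, was 0.24 there and 0.38 with the filter.

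The next kinase and the decarboxylase of the same branch overlapped between the groups. Pmvk, the phosphomevalonate kinase gene, had 46.8 and 42.2 CPM in the controls against 42.3 and 41.6 CPM after knockdown. Mvd, the gene of mevalonate diphosphate decarboxylase, had 44.9 and 46.2 against 47.1 and 39.0 CPM. Each stood at -0.08 ± 0.17 on the log2 scale (edgeR adjusted p = 0.89 for each). Whether Mvk differs from these 2 genes in its change was not tested.

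Mvk lies head to head with Mmab, which encodes an enzyme of cobalamin metabolism, and their annotated starts are 209 bases apart. Mmab was looked at after the value of Mvk was seen. It had 12.4 and 14.2 CPM in the controls and 9.94 and 9.66 CPM after knockdown, so that these groups lay apart as well. Its log2 fold change of -0.44 ± 0.24 was smaller than that of Mvk and was not called (edgeR adjusted p = 0.50).

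Since Mvk and Acss2 had the lowest p values among the members and Idi1 the widest gap between the controls, their promoters are shown, from 250 bases before to 50 bases from the annotated start (RefSeq, GRCm38.p6, 5′ to 3′ on the gene's strand). Capitals mark CCAAT on either strand, the box bound by NF-Y, a factor that works beside SREBPs at sterol genes. Mvk (chr5:114444019-114444318, plus strand), Acss2 (chr2:155517793-155518092, plus strand) and Idi1 (chr13:8885356-8885655, plus strand) read:
Mvk: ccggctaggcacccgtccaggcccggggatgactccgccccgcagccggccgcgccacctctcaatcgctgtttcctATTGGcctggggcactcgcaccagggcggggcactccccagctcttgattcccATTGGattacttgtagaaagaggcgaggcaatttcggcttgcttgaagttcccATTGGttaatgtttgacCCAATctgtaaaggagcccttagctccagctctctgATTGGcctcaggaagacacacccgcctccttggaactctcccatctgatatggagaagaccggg
Acss2: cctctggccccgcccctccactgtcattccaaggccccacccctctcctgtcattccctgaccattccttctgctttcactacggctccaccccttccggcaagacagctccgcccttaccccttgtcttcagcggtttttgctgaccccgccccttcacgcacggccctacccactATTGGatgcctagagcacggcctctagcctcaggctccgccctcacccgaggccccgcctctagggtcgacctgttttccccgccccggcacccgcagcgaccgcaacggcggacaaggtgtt
Idi1: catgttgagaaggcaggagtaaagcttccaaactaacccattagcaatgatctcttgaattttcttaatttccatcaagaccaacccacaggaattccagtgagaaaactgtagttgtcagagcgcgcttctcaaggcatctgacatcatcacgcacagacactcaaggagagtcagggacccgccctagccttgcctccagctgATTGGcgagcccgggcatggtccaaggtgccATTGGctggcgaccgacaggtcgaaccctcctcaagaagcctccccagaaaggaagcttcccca

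The Mvk window held 5 matches, that of Idi1 2 and that of Acss2 1. Such windows were found for 26 of the 32 members, and no other source was searched for the rest. A gene with several windows was counted by the window with the most matches. In the sterol enzymes, 14 of 14 genes with a window held CCAAT in any window, and 9 held it more than once. Among the 2 windows of Pmvk and the 3 of Dhcr7, some held none. The 14 include Hmgcs1, which was not tested. Among tested genes with a window, 43.2% held it and 16.6% held it more than once. In the fatty acid enzymes it was found in 6 of 8 genes. The GC box GGGCGG, bound by SP1 and searched on both strands, was found in 13 of 14 sterol enzymes, 3 of 8 fatty acid enzymes and 70.4% of tested genes.

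A core of the SREBP response element, TCACNCCAC on either strand, was found in 1 member, Hmgcs1, and in 1.43% of tested genes. It is shown because it is the sole match among the 26 members with a window. The 60 bases around it, in capitals, are at chr13:119690189-119690248 (GRCm38.p6, plus strand):
Hmgcs1: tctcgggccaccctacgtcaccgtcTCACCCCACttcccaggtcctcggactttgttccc

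These matches are letters in a window and not measured binding, and none of the 3 motifs contains another. Mvk, Acss2 and Idi1 all held CCAAT; both knockdown libraries were below both controls in Mvk and Acss2, and the groups overlapped in Idi1.

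Isoprenoid steps follow mevalonate. Idi1, the isopentenyl diphosphate isomerase gene, had 28.6 and 11.4 CPM in control libraries 1 and 2, and 14.96 and 11.1 CPM in the knockdown libraries. The controls differed from each other by more than the groups did. The fold change of Idi1 was -0.61 ± 0.38 on the log2 scale (edgeR adjusted p = 0.58), and without control library 1 it was 0.19. Fdps, the farnesyl diphosphate synthase gene, had 76.2 and 69.7 CPM in the controls and 65.7 and 52.4 CPM after knockdown, both below both controls. For Fdps the log2 fold change came to -0.31 ± 0.16 (edgeR adjusted p = 0.50).

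The enzymes that build squalene and close it to lanosterol overlapped between the groups. Fdft1, the squalene synthase gene, had 133 and 96.5 CPM in the controls and 122 and 106 CPM after knockdown. Sqle, the squalene epoxidase gene and a main control point of the branch, had 104 and 72.6 against 100.3 and 79.9 CPM. In both genes the control libraries were the highest and the lowest of the 4. Their log2 fold changes were -0.004 ± 0.17 and 0.03 ± 0.19. Lss, the lanosterol synthase gene, had 64.7 and 55.2 CPM in the controls and 57.9 and 51.6 CPM after knockdown, which is -0.13 ± 0.16 on the log2 scale (edgeR adjusted p = 0.80).

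Past lanosterol, 8 enzymes remove methyl groups and shift or reduce double bonds. Tm7sf2, a sterol C14 reductase gene, had 6.69 and 6.14 CPM in the controls and 4.79 and 2.79 CPM after knockdown, the lowest level of the members that were tested. It was the member of this step group with the lowest p, at a log2 fold change of -0.76 ± 0.35 (unadjusted p = 0.053; edgeR adjusted p = 0.44). Its annotated exons overlap those of Vps51 on the same strand, so some reads could have been lost or assigned to either gene. Cyp51, the lanosterol demethylase gene, had 75.1 and 45.5 against 46.1 and 44.5 CPM. Only control library 1 stood apart in Cyp51. The log2 fold change of Cyp51 was -0.41 ± 0.22, and -0.01 without that library.

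Sc4mol had 42.5 and 21.8 CPM in the controls and 35.3 and 25.6 CPM after knockdown, so that the knockdown libraries lay between the controls. Ebp, the sterol isomerase gene, had 44.2 and 42.1 against 61.5 and 38.9 CPM, with knockdown library 1 alone high. Nsdhl, Hsd17b7, Sc5d and Dhcr7, which encode a decarboxylating dehydrogenase, a ketoreductase, a desaturase and the last reductase before cholesterol, overlapped between the groups. Their log2 fold changes ran from -0.20 ± 0.26 for Hsd17b7 to 0.005 ± 0.19 for Sc5d. As a group, 13 of the 16 tested sterol enzymes were below 0, with a median of -0.12. Of the 16, 3 were below both controls and 0 above both, beside 21.3% and 22.3% of all tested genes. Without control library 1 the median was 0.006, with 8 of 16 below 0.

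Transcripts of the SREBP machinery lay close between the groups. Srebf2, which encodes the SREBP that mainly drives sterol genes, had 395 and 358 CPM in the controls and 375 and 313 CPM after knockdown. Srebf1, whose product mainly drives fatty acid genes, had 97.6 and 112 against 94.6 and 101 CPM. Scap had 126 and 131 against 114 and 124 CPM, with both knockdown libraries below both controls. Their log2 fold changes were -0.13 ± 0.15, -0.10 ± 0.15 and -0.11 ± 0.14, with edgeR adjusted p values from 0.77 to 0.83, and once transcript length and GC content entered the fit as an offset they were 0.01, 0.02 and 0.002.

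Insig1 and Stard4 were higher in both knockdown libraries, though neither was called. Insig1, whose product retains SCAP, had 112 and 104 CPM in the controls and 148 and 119 CPM after knockdown, with both knockdown libraries higher. This gave a log2 fold change of 0.31 ± 0.15 (unadjusted p = 0.068; edgeR adjusted p = 0.47). Stard4, the gene of a cytosolic sterol carrier, had 28.3 and 19.8 against 28.7 and 29.2 CPM, also above both controls. Stard4 stood at 0.27 ± 0.21 on the log2 scale (edgeR adjusted p = 0.65), and at 0.03 without control library 2.

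In the fatty acid branch, 2 enzymes supply cytosolic acetyl-CoA. Acly, the ATP citrate lyase gene, had 613 and 618 CPM in the controls and 603 and 522 CPM after knockdown. Both knockdown libraries were below both controls, at -0.13 ± 0.14 on the log2 scale (edgeR adjusted p = 0.77). Acss2, the gene of the acetyl-CoA synthetase that uses free acetate, had 13.6 and 11.7 CPM in the controls and 5.91 and 6.74 CPM after knockdown. These groups lay well apart, and the log2 fold change of -0.997 ± 0.26 was the furthest from 0 among the 31 tested members. It had an unadjusted p of 0.0023 and an edgeR adjusted p of 0.18. With no filter, where edgeR leaned less on each gene's own spread, the adjusted p was 0.038, and DESeq2 gave 0.070. On the opposite strand, annotated exons of Gss, Ggt7 and an antisense RNA overlap those of Acss2, and no source used here says whether the counting used strand.

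Malonyl-CoA and palmitate are made by Acaca, Acacb and Fasn. Fasn, the fatty acid synthase gene, had 1114 and 730 CPM in the controls and 876 and 582 CPM after knockdown, so library 2 of the controls lay below library 1 of the knockdown. Acaca, the cytosolic acetyl-CoA carboxylase gene, had 137 and 93.1 against 98.1 and 87.9 CPM. Their log2 fold changes were -0.34 ± 0.24 and -0.30 ± 0.18 (edgeR adjusted p = 0.61 and 0.54), and -0.08 and -0.09 with the length and GC offset. Without control library 1 they were -0.003 and -0.001. Acacb, the mitochondrial carboxylase gene, had 15.9 and 22.8 against 17.5 and 21.2 CPM, with a log2 fold change within 0.001 of 0 before the offset and 0.25 ± 0.24 with it.

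The desaturases Scd1 and Scd2 put the first double bond into saturated acyl chains. Scd1 had 69.2 and 58.5 CPM in the controls and 54.3 and 37.5 CPM after knockdown, below both controls. Scd1 had a log2 fold change of -0.47 ± 0.19 (unadjusted p = 0.030; edgeR adjusted p = 0.37). Without knockdown library 2 it was -0.23, and without knockdown library 1 it was -0.77. Scd2, the more abundant of the pair, had 441 and 263 against 359 and 256 CPM and overlapped between the groups, at -0.19 ± 0.25. The 2 genes are close copies, and reads that aligned to more than 1 place were tallied apart and counted for no gene. The counts of both genes may thus be too low. Such reads were 32.8% and 30.2% in control libraries 1 and 2, and 28.7% and 26.1% in knockdown libraries 1 and 2.

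Among the elongases, Elovl5 had 108 and 102 CPM in the controls and 89.0 and 85.4 CPM after knockdown, below both controls. Elovl5 acts on polyunsaturated chains, and its log2 fold change was -0.26 ± 0.14 (edgeR adjusted p = 0.50). Elovl6, which extends palmitate, had 169 and 126 against 129 and 126 CPM, with control library 1 alone high. Elovl1, which acts on very long saturated chains, had 32.0 and 33.2 against 37.8 and 35.0 CPM, above both controls at 0.16 ± 0.17. Of the 10 fatty acid enzymes, 9 were below 0, with a median of -0.23. Of the 10, 4 were below both controls and 1 above both, beside 21.3% and 22.3% of all tested genes. Without control library 1 the median was -0.07, and without control library 2 it was -0.46.

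**Figure D2:**
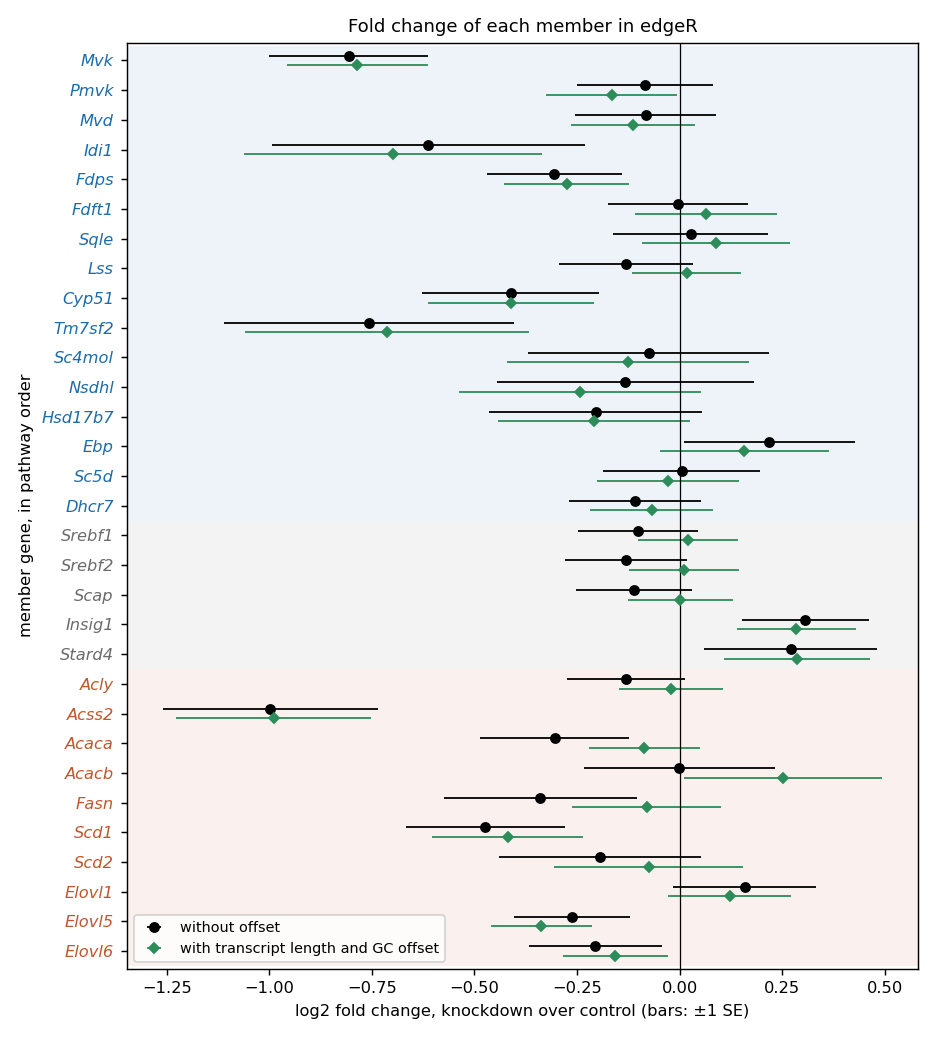
Log2 fold change of each tested member, knockdown over control (horizontal axis, bars ±1 SE), without (black circles) and with (green diamonds) the offset for length and GC content. Mvk and Acss2 hardly move with the offset, whereas Acaca and Fasn go from -0.30 and -0.34 to -0.09 and -0.08.

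Sterol and fatty acid steps were then set side by side. The mean log2 CPM over the 16 sterol enzymes was 5.29 and 4.92 in control libraries against 5.01 and 4.80 in knockdown libraries, a difference of group means of -0.20. Over the 10 fatty acid enzymes it was 6.83 and 6.60 against 6.53 and 6.36, a difference of -0.27. Knockdown library 1 lay above control library 2 in the sterol mean and not in the fatty acid mean. The sterol mean minus the fatty acid mean was -1.54 and -1.68 in control libraries against -1.52 and -1.57 in knockdown libraries. These values overlap, and their group means differed by 0.06, less than the SD of 0.10 between the controls. With the length and GC offset that difference was -0.03. No test was made of these means, since the members had been chosen.

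Fold changes varied with transcript length over the tested genes that had a matched length. These genes were ordered by length and divided into 5 groups. The group of the shortest had a median log2 fold change of 0.12 and that of the longest one of -0.14. The sterol enzymes had a median transcript length of 2998 bases and the fatty acid enzymes one of 5143.5. With the offset, sterol enzymes had a median log2 fold change of -0.15 and fatty acid enzymes one of -0.08. Before the offset the fatty acid enzymes had the lower median, and after it the sterol enzymes. Within the groups, the pooled SD of the mean log2 CPM was 0.22 for sterol and 0.14 for fatty acid enzymes. The offset takes length and GC content together, so the part of length alone was not tested.

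**Figure D3:**
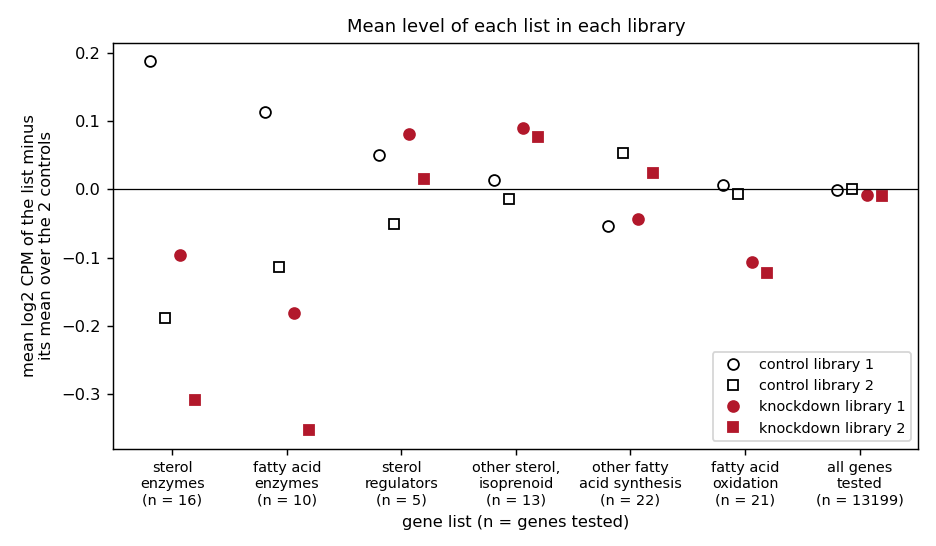
Mean log2 CPM of each gene list in each library, less its mean over the 2 controls (vertical axis), for the lists named on the horizontal axis with their number of tested genes. In sterol enzymes the controls lie further apart than the group means, whereas in fatty acid oxidation genes, with means of 4.92 and 4.91 against 4.81 and 4.79, the groups lie apart. Of these 21 oxidation genes only 12 were below 0, with a median log2 fold change of -0.05.

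Within each group most enzymes differed between the libraries in the same direction. In the controls, 20 of the 26 tested enzymes were higher in library 1 than in library 2, with a median gap of 0.24 on the log2 scale, and in the knockdown libraries 22 of 26 were, with a median gap of 0.18. Over all tested genes the median gaps were -0.01 and -0.004. Regardless of direction, the gaps were of ordinary size: their median was 0.247 in the controls and 0.212 in the knockdown libraries for the enzymes, and 0.254 and 0.220 for all tested genes. Idi1 had a gap of 1.31 between the controls, a size that 3.07% of all tested genes exceeded in either direction. It was followed by Sc4mol at 0.96, Scd2 at 0.75 and Cyp51 at 0.72, and the gap of Fasn was 0.61. In 16 of the 26 enzymes the fold change between the groups was smaller than the gap between the controls, as it was in 7191 of all 13199 tested genes. Mvk and Elovl5 were among the opposite cases, each with gaps under 0.10 in both groups. Across the 31 members, which share these 4 libraries, the 2 gaps had a Pearson correlation of 0.27, beside 0.24 across all tested genes.

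**Figure D4:**
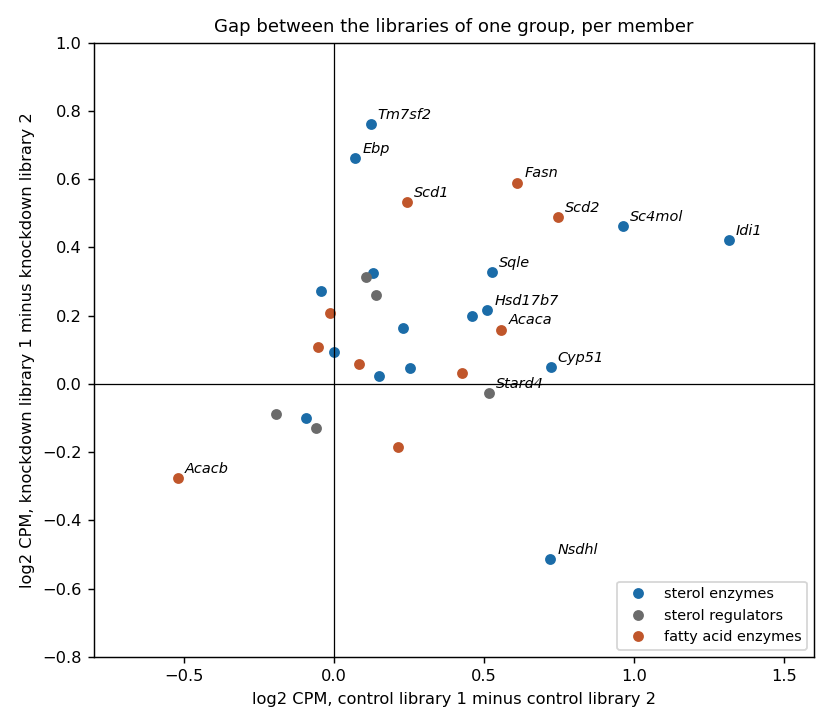
Log2 CPM of library 1 minus library 2 within the controls (horizontal axis) and within the knockdown libraries (vertical axis), with 1 point for each of the 31 tested members, coloured by list. Most points lie right of and above 0, with Idi1, Sc4mol, Fasn and Scd2 far into that corner and Nsdhl and Acacb outside it.

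Per transcript length, members spanned a wide range of levels. Acly was highest, at a mean of 133 CPM per kilobase over the 4 libraries, and its lowest library lay above the highest library of Fasn, the next gene (82.1). Srebf2 (70.9), Scd2 (60.5) and Insig1 (44.6) followed, and each overlapped its neighbour in this order. Tm7sf2 (1.66), Acacb (2.20), Hsd17b7 (2.62) and Acss2 (2.63) were lowest. In the order from Acly to Tm7sf2, 29 neighbouring pairs overlapped in their libraries, so apart from the rank of Acly neighbours are not separated. The lengths are those of the longest annotated transcript, which can understate a gene whose main transcript is shorter.

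Cyrano is known for its pairing with miR-7, whose seed (bases 2 to 8, in capitals) is shared by both mature forms in RefSeq, shown here because the sites below are matched to it:
mmu-miR-7a-5p: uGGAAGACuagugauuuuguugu
mmu-miR-7b-5p: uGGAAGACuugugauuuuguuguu

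Sites GTCTTCC or TCTTCCA were searched on the transcript strand in the longest annotated 3′ UTR. Among the 31 tested members, 9 (29.0%) held a site, beside 26.4% of tested genes with a 3′ UTR of at least 50 bases. The regulators Srebf1 and Insig1, and Fasn and Scd2 among the fatty acid enzymes, are shown with site letters in capitals:
Srebf1: gtcattggctgtgGTCTTCCAgagg
Insig1: gggtggagaggacTCTTCCAcagcc
Fasn: tggcctccacagcTCTTCCAgtgag
Scd2: ttttaattcctgtTCTTCCAtcttt
Scd2, second site: cttcgaggggacaGTCTTCCtgggc

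Mvd, Lss, Sc4mol, Hsd17b7 and Sc5d were the others with a site. The 9 members had log2 fold changes from -0.34 for Fasn to 0.31 for Insig1, with a median of -0.10, 7 below 0 and 2 above. The 22 without a site had a median of -0.13, with 18 below 0. Mvk, Acss2 and Scd1 held no site, so the 3 members at an unadjusted p under 0.05 were all among those without.

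Other genes around these pathways were counted from lists. Of 13 tested further sterol and isoprenoid genes, 8 were above 0 with a median of 0.04, and 2 had an unadjusted p under 0.05, both higher. Ggps1, which makes the geranylgeranyl diphosphate that leaves the sterol branch at farnesyl diphosphate, had 9.31 and 10.3 CPM in the controls and 16.04 and 13.5 CPM after knockdown, which is 0.59 ± 0.24 on the log2 scale (edgeR adjusted p = 0.37). Cyb5b, a cytochrome b5 gene, had 414 and 387 against 531 and 481 CPM, at 0.34 ± 0.14 (0.38). Of 25 sterol sensing, export and storage genes, 10 were above 0 with a median of -0.06. Abcg1, a sterol exporter gene, had 6.57 and 7.52 CPM in the controls and 3.49 and 4.65 CPM after knockdown, at -0.79 ± 0.32 (edgeR adjusted p = 0.36).

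Of 22 further fatty acid synthesis genes, 13 were above 0 with a median of 0.11. Ptpla and Ptplb, older symbols of the dehydratase genes Hacd1 and Hacd2 that serve the elongation cycle, were the 2 with an unadjusted p under 0.05. Ptplb had 77.6 and 75.2 CPM in the controls and 105 and 108 CPM after knockdown, and Ptpla had 6.14 and 8.69 against 12.4 and 14.3 CPM. In both, the groups lay apart, with log2 fold changes of 0.48 ± 0.14 and 0.84 ± 0.27 (edgeR adjusted p = 0.22 and 0.24). None of the genes in these 3 lists was called.

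Markers of endoderm, another cell type such cultures can hold, were mostly higher in the knockdown libraries. Of 22 markers 19 were tested, none was called over all genes, and 16 were above 0, with a median of 0.38. Their summed level was 2724 and 2243 CPM in the controls and 3104 and 2504 CPM after knockdown, ranges that overlap. Their mean log2 CPM, which weighs the markers equally, was 4.85 and 4.80 in control libraries against 5.20 and 5.18 in knockdown libraries, so that here the groups lay apart. Both knockdown libraries were above both controls in 12 of the 19, beside 22.3% of all tested genes, and below both in 1, beside 21.3%. At an unadjusted p under 0.05, 9 were higher and 1 lower, where 6.18% and 5.43% of all tested genes were. The defining genes Gata4, Gata6 and Sox17 were detected in every library and higher in both knockdown libraries, while Ttr was listed at 0 in every library and Afp in both controls. Other marker lists moved too: of 8 tested neuroectoderm markers, 3 were higher and 2 lower at an unadjusted p under 0.05. Of 11 trophectoderm and 5 fibroblast markers tested, 1 in each list was higher and 0 lower. None of these was called over all genes. Of the 18 pluripotency markers, 11 were below 0, with a median of -0.15. Of these markers 10 were below both controls, beside 21.3% of all tested genes, and 4 above both, beside 22.3%. At an unadjusted p under 0.05, 6 were lower and 2 higher. The ribosomal RNA precursor gene Rn45s took 17.5% and 15.9% of control counts and 12.3% and 11.03% of knockdown counts. The part of these differences in the values of the lipid genes was not tested.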

How the data were processed

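The authors deposited 1 table of unnormalized read counts by gene symbol for each library. Per the submitters' processing notes, TopHat, HTSeq, SAMtools and bedtools were used with mm9; no version, annotation or strand setting for the counting is named there. Per the labels' protocols, libraries were poly(A) selected and strand-specific, from RNA isolated with either of 2 kits. Tallies that name no gene (33.1% to 40.8% of reads a library) were left out. edgeR 4.0.16 in R 4.3.3 was used with filterByExpr (minimum count 10), TMM, robust glmQLFit and glmQLFTest, with group as the only term. Tests were two-sided, adjusted by Benjamini-Hochberg over 13199 genes, with a threshold of 0.05. Each SE was obtained as |log2 fold change| divided by sqrt(F). Mean levels of lists use log2 CPM with a prior count of 2. With 2 libraries a group, an exact permutation test cannot go below p = 0.333. The submitters call the libraries biological replicates without saying how cultures were separated, so p-values reflect only how these libraries differ among themselves. Alternatives were other scalings, filters and tools (DESeq2 1.42.0, limma-voom 3.58.1), each library left out, the replicate number as a block, and an offset from splines of transcript length and GC content. Lengths, 3′ UTRs and exon overlaps came by symbol from GENCODE M21 (GRCm38, not the files' build; 98.5% of symbols matched), and promoters and miRNAs from RefSeq. The scripts were tested on simulated data. Values in every library are given for members with an unadjusted p under 0.05, the lowest p of each step group, the regulators and both Scd genes, and for other members chosen after their values were seen; the lists of further genes name up to 3 with an unadjusted p under 0.05, and 1 gene that this rule takes is not reported here. The members and lists were chosen with earlier results of these data known.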

Additional observations from a re-analysis of the deposited data

Results flagged for a closer look

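Ambiguous reads, those that fit more than 1 gene and are counted for none, were 0.459% and 0.513% of all tallied reads in the control libraries. In the knockdown libraries they were 0.568% and 0.60%, a mean of 0.584%. This signal outside the gene counts was above its level in both controls (two-sided exact permutation p = 0.333, the lowest value this design allows). The larger tally of reads that aligned to more than 1 place went the other way, with means of 31.5% in the controls and 27.4% after knockdown. Among the members, annotated exons of Fdps, Tm7sf2, Srebf1 and Scd2 overlap another gene's on the same strand, and those of Hmgcs1, Idi1, Fdft1, Lss, Cyp51, Srebf1, Scap, Acss2, Elovl1 and Elovl6 do so on the opposite strand. The share of ambiguous reads that belongs to them was not analysed here.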

How the results depend on the processing

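Of 16 alternatives, all left Mvk (log2 fold change from -0.86 to -0.75), Acss2 (-1.10 to -0.89) and Scd1 (-0.77 to -0.23) lower after knockdown. The count of genes called over all genes was 11, and it was 6 with RLE factors, 26 with upper-quartile factors, 50 with library size only (66.9% of genes at an unadjusted p under 0.05 higher, against 53.2%), 332 with no filter, 6 with a CPM filter, 136 with DESeq2, 3 with limma-voom and 4 without robust estimation; leaving out 1 library gave 0 (without control library 2) to 191 (without knockdown library 1). Members called numbered 0, against 2 with no filter (Mvk and Acss2) and 1 with DESeq2 (Mvk), and stayed at 0 to 0 with 1 library left out. Members at an unadjusted p under 0.05 numbered 3, beside 11.6% of all tested genes, against 7 with no filter, beside 11.5%. Cyrano was at -2.42 with limma-voom (adjusted p = 0.051) and at -2.79 to -2.08 with 1 library left out.

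The replicate numbers are shared between the groups, but no label says that a number marks a common source, and 2 pairs cannot show it (same-numbered libraries' gaps correlate at 0.24 over all genes). With the replicate number as a block, 955 genes (7.24%) and 3 members were called. The members were Mvk, Acss2 and Scd1, with edgeR adjusted p of 0.00089, 0.0023 and 0.024. At an unadjusted p under 0.05 there were 10 members, beside 20.3% of all tested genes. With the block and the length and GC offset, 589 genes (4.46%) and 2 members were called, Mvk and Acss2, at an edgeR adjusted p of 0.012 and 0.023. There 9 members had an unadjusted p under 0.05, beside 21.1% of all tested genes, and the fatty acid median was -0.073. With 4 libraries and terms for block and group, each gene's own spread was hardly estimated, so these p-values lean on the spread shared over genes.

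With the offset alone the fatty acid median was -0.083 and the sterol minus fatty acid difference -0.033. With 1 library left out the fatty acid median ran from -0.46 to -0.071, the sterol median from -0.31 to 0.0063 and the sterol minus fatty acid difference from -0.0094 to 0.14. The last was not computed for DESeq2, limma-voom, non-robust and block fits, which do not change the levels. Hmgcs1 has no value in any of them.

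Members near 0 turned sign. With upper-quartile factors Sc5d was at -0.015. With library size only Fdft1 was at 0.049 and Acacb at 0.055, and with no filter Acacb was at 0.00088. With limma-voom Fdft1 was at 0.013, Sc4mol at 0.0028 and Acacb at 0.0057. With the block Fdft1 was at 0.0092 and Acacb at 0.015. With the offset Fdft1 was at 0.065, Lss at 0.017, Sc5d at -0.027, Srebf1 at 0.020, Srebf2 at 0.011, Scap at 0.0021 and Acacb at 0.25. With block and offset they were at 0.084, 0.017, -0.023, 0.018, 0.014, 0.00053 and 0.26. Without Rn45s and Lars2 Sc5d was at -0.00071.

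With 1 library left out, the range was -1.13 to 0.19 for Idi1, -0.22 to 0.24 for Fdft1, -0.21 to 0.31 for Sqle, -0.48 to 0.48 for Sc4mol, -0.46 to 0.27 for Nsdhl, -0.44 to 0.073 for Hsd17b7, -0.16 to 0.52 for Ebp, -0.041 to 0.050 for Sc5d, -0.23 to 0.021 for Dhcr7, -0.23 to 0.052 for Mvd, -0.24 to 0.28 for Acacb, -0.52 to 0.23 for Scd2 and -0.41 to 0.022 for Elovl6. The cause of these shifts was not tested. Tm7sf2, at 2.79 to 6.69 CPM, had the fewest counts of the tested members and so the widest counting error.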

Other observations

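Fatty acid oxidation, the pathway that runs against synthesis, had a mean level that varied less within the groups than that of the enzymes above. Its 21 tested genes had a mean log2 CPM of 4.92 and 4.91 in control libraries against 4.81 and 4.79 in knockdown libraries, with 12 below 0 and a median of -0.05. Cpt1a, whose product admits acyl chains to mitochondria and is inhibited by malonyl-CoA, had 106 and 111 CPM in the controls and 78.8 and 79.8 CPM after knockdown, which is -0.45 ± 0.14 on the log2 scale (edgeR adjusted p = 0.24). Eci2, an enoyl-CoA isomerase gene, went the other way, from 18.2 and 18.3 to 27.3 and 23.4 CPM, at 0.47 ± 0.20 (edgeR adjusted p = 0.38). No gene of the list was called over all genes.

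Of 21 tested acyl-CoA and glycerolipid genes, 10 were above 0 and the median was -0.02. Plin2, which encodes a coat protein of lipid droplets, had 24.3 and 23.1 CPM in the controls and 32.0 and 34.4 CPM after knockdown, which is 0.48 ± 0.18 on the log2 scale (edgeR adjusted p = 0.34). Among the acyl-CoA synthetases, Acsl5 was at 0.70 ± 0.32 and Acsl6 at -0.72 ± 0.30 (0.42 and 0.37), and in both the groups did not overlap. None of these genes was called.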
